A study of Mus musculus with 6 samples.

Results

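The enzymes examined here carry out the breakdown of amino acids in the liver. They were given as a list of 44 genes, chosen by name from the pathways of tryptophan, phenylalanine and tyrosine, histidine, serine and glycine, proline and its relatives, lysine, cysteine, the aminotransferases and the branched-chain amino acids. Earlier results of these data were known when the list was made. Every probe whose symbol was on the list was taken, which gave 56 probes of 37 genes among 25697 probes and 18138 symbols in the table. *Hoga1* and *Aspdh* appear there under their older names 0610010D20Rik and 0610012D14Rik. *Glud1*, *Hgd*, *Amdhd1*, *Acmsd*, *Mccc2* and *Got1* had no probe under these symbols and were not analysed here, and *Gpt*, listed as Gpt1, is given separately outside the counts.

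RNA came from the livers of male mice of the FVB/N background, labelled FVB, at postnatal day 6 and was hybridised to Illumina MouseRef-8 v2.0 bead arrays, with 3 arrays for each of the 2 groups. In hSRY-OFF mice the *Signalox-hSRY* transgene, a single copy at the *H11* locus, was not recombined, so that the *CAG* promoter drove *DsRed2* and human *SRY* stayed silent. In hSRY-ON mice Cre had recombined the same transgene in the fertilized egg, which placed FLAG-tagged human *SRY* and *EGFP* behind the ubiquitous *CAG* promoter. The comparison asks which genes of the liver differ when human *SRY*, the gene that starts testis development, is active throughout the body.

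Both groups therefore carried the transgene, and all animals came from 1 integration of it. The Cre was made by *Ddx4-Cre* mothers and passed on in the oocyte, and per the study's methods the hSRY-ON pups used for the arrays had not inherited *Ddx4-Cre*. The labels give neither feeding state nor body weight nor litter. The study calls the controls of the arrays age-matched and names no cross for the pups with the unrecombined transgene. Differences of mother and litter therefore cannot be told apart from those of the groups. The study reports that hSRY-ON pups suckled little, lacked milk in the stomach at necropsy and grew more slowly than control littermates. It also describes fatty liver in them, and growth retardation that was already visible at the age chosen for the arrays. The part of feeding, growth and liver fat in the differences below was not tested.

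The liver is the main site at which amino acids beyond the needs of protein synthesis are degraded. An aminotransferase, dehydratase or oxygenase usually takes the first step, and the carbon skeleton then goes on, mostly inside mitochondria, to glucose, ketone bodies or carbon dioxide while the nitrogen goes to urea. Many of these enzymes are abundant in hepatocytes, and several appear or rise only around birth.

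Values are log2 intensities after background correction and quantile normalization, and a difference is the mean of the hSRY-ON arrays minus that of the hSRY-OFF arrays, with its standard error (SE). A probe was tested if it was detected on at least 3 of the 6 arrays, and it passed the test if its p, adjusted over all 10734 tested probes, was under 0.05. Arrays correlated at 0.987 to 0.992 within the hSRY-OFF group, at 0.965 to 0.982 within the hSRY-ON group and at 0.912 to 0.939 between groups. The study describes its samples as biological replicates, while the labels tie no array to an animal, and p-values measure the spread between these arrays.

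Of the 37 genes, 31 were tested, with 44 probes. In hSRY-ON liver 14 genes were lower, 3 were higher and 14 did not pass the test, and no gene had probes past the threshold in both directions. Among all 8225 tested symbols, 18.3% were lower and 17.7% were higher. Counted by probe, 26 of 44 fell, or 59.1%, against 17.3% of all tested probes, and 3 rose, against 15.8% of all tested probes. The median difference was -0.72 over the 44 probes and 0.02 over all tested probes.

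*Afmid* alone holds 7 of these probes. Without it 19 of 37 probes fell and the same number rose, 3, with a median difference of -0.55. Falls of more than 2-fold were found at 18 of the 44 probes, against 6.95% of all tested probes, and rises of more than 2-fold at 3, against 5.23%. The hSRY-ON arrays all lay below the hSRY-OFF arrays at 29 probes, against 24.6% of all tested probes, and all above them at 4, against 25.4%. In these whole-liver samples, fewer cells of a type and less RNA per cell cannot be told apart.

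**Figure D1:**
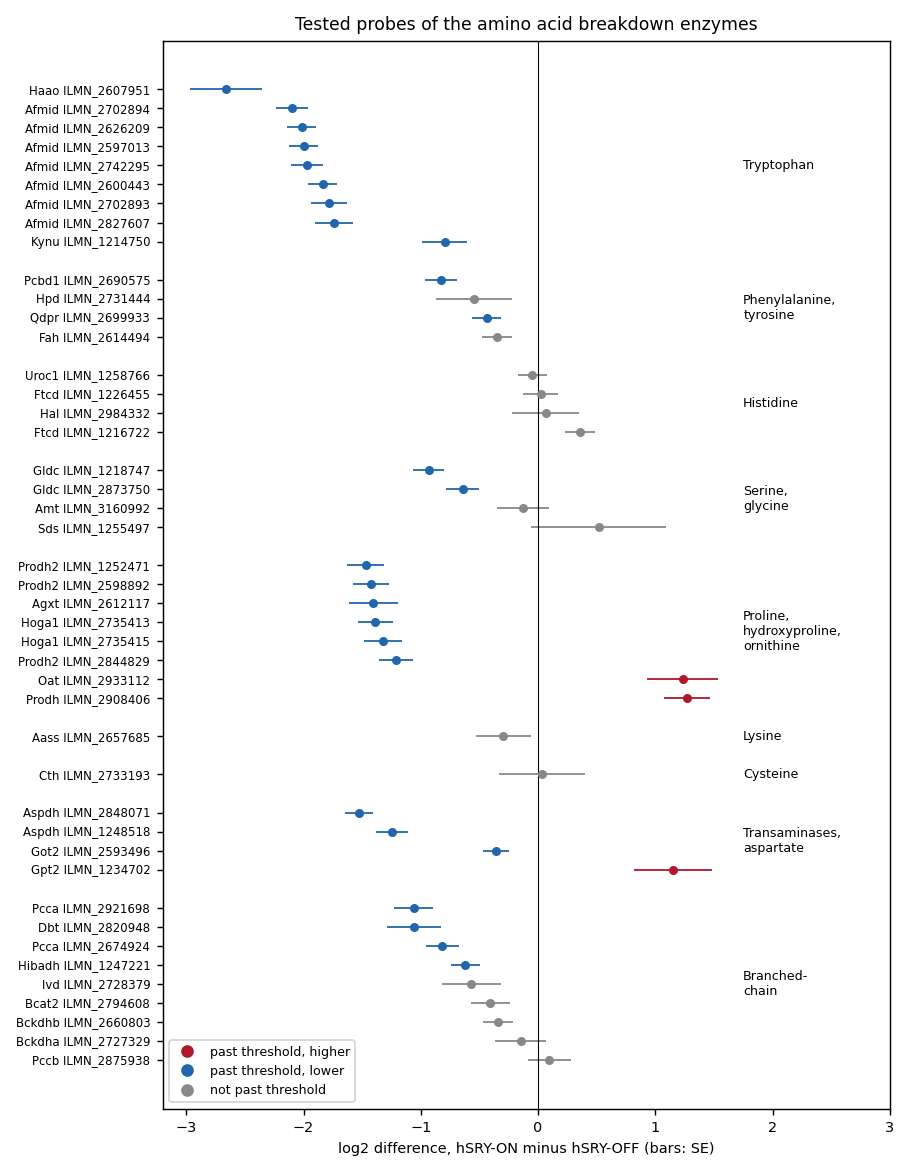
Log2 difference (hSRY-ON minus hSRY-OFF, x axis) of each of the 44 tested probes, grouped by amino acid, with bars for the SE and colours for the test. All 9 tryptophan probes lie to the left of 0 and are past the threshold, the 4 histidine probes lie around 0, and the 3 rises, *Prodh*, *Oat* and *Gpt2*, stand alone on the right.

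The tryptophan route had the largest median fall of the groups with the settings used here. Its enzymes take tryptophan through kynurenine towards NAD, with *Tdo2* opening the ring, *Afmid* removing the formyl group, *Kmo* adding a hydroxyl group, *Kynu* cleaving the side chain and *Haao* opening the ring of 3-hydroxyanthranilate. All 9 tested probes fell in hSRY-ON liver, 7 of them of *Afmid* and the others of *Kynu* and *Haao*. Of all tested probes 17.3% fell. Among the further genes described below, 3 of 5 tested tryptophan probes were lower and 0 were higher. The median difference of -1.97 is the value of an *Afmid* probe, so it mostly describes this gene.

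*Haao* was at 12.00, 12.01 and 12.26 on the hSRY-OFF arrays and at 9.26, 8.87 and 10.15 on the hSRY-ON arrays (probe ILMN_2607951). The groups lay far apart, with hSRY-ON array 3 the highest of its group. The fall was 6.34-fold, or -2.66 ± 0.31 (SE, adjusted p = 0.00106), and -3.04 without that array.

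The *Afmid* probe with the largest fall, ILMN_2702894, read 8.69, 8.78 and 8.81 on the hSRY-OFF arrays and 6.80, 6.44 and 6.75 on the hSRY-ON arrays. No values overlapped, and each group was tight. The difference was -2.10 ± 0.14 (adjusted p = 0.00015), a 4.28-fold fall, and -1.30 without background correction. The other *Afmid* probes moved in parallel, the smallest fall being -1.74.

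*Kynu* had a smaller fall. It read 7.49, 7.58 and 8.01 on the hSRY-OFF arrays against 6.80, 6.70 and 7.20 on the hSRY-ON arrays. Again the groups did not overlap, but hSRY-ON array 3 came close to the lowest hSRY-OFF array. The difference of -0.79 ± 0.19 (adjusted p = 0.0182) missed the threshold when hSRY-OFF array 2, hSRY-OFF array 3 or hSRY-ON array 1 was left out (adjusted p from 0.0502 to 0.0581), and adjusted p ranged from 0.0072 to 0.0581 over all alternatives. Without background correction the difference was -0.44.

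The first and the third enzyme of the route gave no measurable signal. *Tdo2* read 4.86, 5.11 and 4.68 on the hSRY-OFF arrays and 4.52, 4.65 and 4.82 on the hSRY-ON arrays, and *Kmo* lay between 4.77 and 5.39 on the 6 arrays. Both probes were detected on 0 arrays, so only their being not above background can be stated, and nothing about a difference.

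The stretch of 150 bases before the start of the promoter entry is printed for *Afmid* and *Haao*, the 2 listed genes with the largest falls, from RefSeq on the mouse build GRCm38.p6. Both entries start inside the annotated span of the gene, chr11:117825503-117839908 for *Afmid* and chr17:83831348-83848981 for *Haao*. The printed stretches therefore lie within the genes and not before their outermost start. The letters run 5′ to 3′ along the gene, on the plus strand at chr11:117825769-117825918 for *Afmid* and on the minus strand at chr17:83846791-83846940 for *Haao*.
Afmid: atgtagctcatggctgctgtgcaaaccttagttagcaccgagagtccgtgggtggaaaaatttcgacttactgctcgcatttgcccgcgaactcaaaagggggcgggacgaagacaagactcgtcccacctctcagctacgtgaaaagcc
Haao: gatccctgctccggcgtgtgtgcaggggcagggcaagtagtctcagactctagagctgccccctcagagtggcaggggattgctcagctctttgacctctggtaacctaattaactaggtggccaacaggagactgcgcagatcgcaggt
The promoters of 32 of the 37 genes, 250 bases before to 50 bases after the start, were searched on both strands for short forms of the motifs of 5 regulators of liver genes: CAAAGTCCA for HNF4A, GTTAATNAT for HNF1, TTGCNNAA for CEBP, TGATGNAA for ATF4 and ACANNNTGT for the glucocorticoid receptor. These letters were set after the promoters had been read. The counts below, set beside shares of all promoters, are therefore no test of whether a motif is more common here. None of them occurs in either stretch above, which says only that these letters are not there. In the searched windows of the 32 genes, the HNF4A letters occurred in 1 gene (0.475% of 32851 promoters in the table), the HNF1 letters in 4, *Pcbd1*, *Prodh2*, *Hoga1* and *Got2* (0.801%), the CEBP letters in 4 (10.8%), the glucocorticoid receptor letters in 5 (6.85%) and the ATF4 letters in 0 (3.97%). With a further T at the end of the HNF1 letters, *Pcbd1* and *Prodh2* matched (0.399%). A match is a description of the sequence and no evidence of binding.

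**Figure D2:**
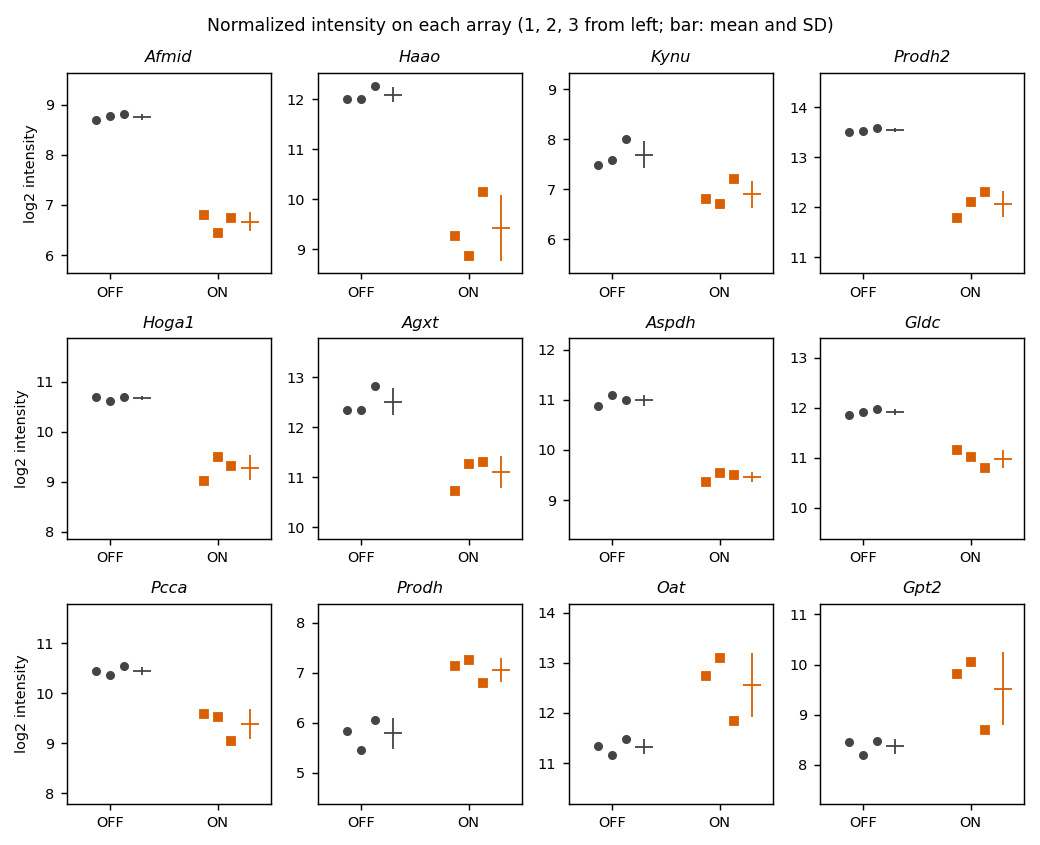
Normalized log2 intensity (y axis, a span of 4 log2 units in every panel, each with its own range) on the 3 hSRY-OFF (circles) and 3 hSRY-ON (squares) arrays for 12 enzymes, with the mean and SD beside the points. In no panel do the groups overlap, and hSRY-ON array 3, the rightmost square, lies nearest to the hSRY-OFF arrays for *Haao*, *Kynu*, *Prodh2*, *Agxt*, *Prodh*, *Oat* and *Gpt2*.

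In phenylalanine and tyrosine breakdown, both enzymes that recycle the cofactor fell, while the listed enzymes *Hpd* and *Fah* of tyrosine breakdown did not pass the test. Among the further genes described below, *Gstz1* of the same route was lower (-0.96 ± 0.11, adjusted p = 0.00106). It was chosen after its values were seen. *Pcbd1* and *Qdpr* restore tetrahydrobiopterin, a cofactor of aromatic amino acid metabolism, after each round of its use. *Pcbd1* also encodes a protein that stabilizes dimers of the transcription factor HNF1.

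*Pcbd1* read 11.57, 11.30 and 11.66 on the hSRY-OFF arrays and 10.65, 10.61 and 10.79 on the hSRY-ON arrays. All hSRY-ON arrays lay below all hSRY-OFF arrays. The difference was -0.83 ± 0.14 (adjusted p = 0.00446), a 1.77-fold fall.

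*Qdpr* read 11.12, 11.23 and 11.19 against 10.89, 10.60 and 10.74, without overlap. The difference of -0.44 ± 0.12 (adjusted p = 0.0314) was lost with the replicate number as a block (adjusted p = 0.0681) and without hSRY-OFF array 1, 2 or 3 or hSRY-ON array 2 (0.0763 to 0.105), in a range of 0.0124 to 0.105 over all alternatives.

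*Fah*, the last enzyme of tyrosine breakdown, differed by -0.35 ± 0.13 with adjusted p = 0.0689, although its groups did not overlap. It passed as lower without background correction (adjusted p = 0.0298) and with normexp and an offset of 50 (0.0432). The same held under trimmed-mean scaling (0.035) and with eBayes with trend and robust (0.0243). *Hpd*, the dioxygenase of 4-hydroxyphenylpyruvate, differed by -0.55 ± 0.32 (adjusted p = 0.225). Here hSRY-ON array 2 stood apart at 12.32, within the hSRY-OFF values. The difference was -0.92 without that array (adjusted p = 0.0178) and -0.30 without hSRY-ON array 3 (adjusted p = 0.476).

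The *Pcbd1* promoter held the HNF1 letters, shown in capitals in the 150 bases before its start, on the plus strand at chr10:61089181-61089330.
Pcbd1: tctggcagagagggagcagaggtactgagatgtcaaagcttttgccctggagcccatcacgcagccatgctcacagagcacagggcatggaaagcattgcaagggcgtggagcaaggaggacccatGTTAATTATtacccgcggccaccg
The match lies 24 to 16 bases before the start.

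In histidine breakdown none of the 4 probes passed the test, and the median difference was 0.04. *Hal* takes ammonia off histidine, *Uroc1* hydrates the urocanate so formed, and *Ftcd* passes the last 1-carbon unit to folate. The *Ftcd* probe with the largest difference, ILMN_1216722, read 12.59, 12.44 and 12.66 on the hSRY-OFF arrays and 12.80, 13.06 and 12.91 on the hSRY-ON arrays. The hSRY-ON arrays were all above the others, and the difference of 0.36 ± 0.13 had an adjusted p of 0.0691. This probe passed as higher without background correction (adjusted p = 0.0306) and with normexp and an offset of 50 (0.0438). It also passed with eBayes with trend and robust (0.0303). At the second *Ftcd* probe the difference was 0.02 ± 0.15. *Uroc1* differed by -0.05 ± 0.12, and *Hal*, detected on 2 arrays of each group, by 0.07 ± 0.29.

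Of the serine and glycine enzymes, *Gldc* fell at both of its probes. It encodes the decarboxylase of the glycine cleavage system, in which *Amt* transfers the 1-carbon unit and *Gcsh* carries the intermediates. The probe ILMN_1218747 read 11.85, 11.91 and 11.98 against 11.15, 11.01 and 10.79 for hSRY-ON, and the groups did not overlap. The difference was -0.93 ± 0.13 (adjusted p = 0.00249), a 1.91-fold fall. At the other probe it was -0.64 ± 0.14 (adjusted p = 0.0129), with adjusted p = 0.0522 when hSRY-OFF array 1 was left out and a range of 0.00202 to 0.0522 over the alternatives.

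*Amt* was close to background, being detected on 2 hSRY-OFF arrays and 1 hSRY-ON array, and differed by -0.13 ± 0.22. *Gcsh* was detected on 0 arrays. *Sds*, which turns serine into pyruvate, varied more between arrays of a group than any other tested enzyme, with 9.39, 9.48 and 10.79 on the hSRY-OFF arrays and 9.32, 11.46 and 10.43 on the hSRY-ON arrays. The groups overlapped, and the difference of 0.52 ± 0.58 had an adjusted p of 0.523.

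In the group of proline, hydroxyproline and ornithine all 8 probes passed the test, 6 lower and 2 higher. Of all tested probes 17.3% were lower and 15.8% higher. Among the 8 probes *Prodh2* holds 3 and *Hoga1* 2. *Prodh* and *Prodh2* are related mitochondrial dehydrogenases, the first for proline and the second for hydroxyproline. *Hoga1* then splits 4-hydroxy-2-oxoglutarate into pyruvate and glyoxylate, and *Agxt* converts glyoxylate to glycine. *Oat* links ornithine to the same semialdehyde that proline breakdown yields.

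*Prodh2* read 13.50, 13.53 and 13.58 on the hSRY-OFF arrays and 11.78, 12.10 and 12.32 on the hSRY-ON arrays at its probe ILMN_1252471. The hSRY-OFF arrays differed by less than 0.1 among themselves, and every hSRY-ON array lay more than 1 log2 unit below them. The fall was 2.77-fold, or -1.47 ± 0.16 (adjusted p = 0.00077), and the other 2 probes gave -1.43 and -1.21.

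*Hoga1* read 10.70, 10.63 and 10.69 on the hSRY-OFF arrays and 9.02, 9.51 and 9.32 on the hSRY-ON arrays at its probe ILMN_2735413. The groups were again widely separated. The difference was -1.39 ± 0.15 (adjusted p = 0.000799), a 2.62-fold fall, and the second probe gave -1.32 ± 0.17. For *Agxt*, values of 12.35, 12.36 and 12.82 stood against 10.73, 11.27 and 11.31 for hSRY-ON. They did not overlap, and the difference was -1.40 ± 0.21 (adjusted p = 0.00296). The falls of these 3 genes of the hydroxyproline route kept their call in all 15 alternatives run at the threshold of 0.05.

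*Prodh* rose. It was near background in the hSRY-OFF group, with 5.85, 5.46 and 6.07 and detection on 2 arrays, and read 7.13, 7.26 and 6.79 on the hSRY-ON arrays. All hSRY-ON arrays lay above all hSRY-OFF arrays. The difference was 1.27 ± 0.20 (adjusted p = 0.00341), and 1.18 with the undetected array set to its detection floor. The size of this rise depended on the background correction, being 0.52 without it, 0.77 with normexp and an offset of 50, and 0.52 under trimmed-mean scaling, and it passed the test in each.

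*Oat* rose as well, from 11.34, 11.17 and 11.48 to 12.74, 13.09 and 11.85. There was no overlap, but hSRY-ON array 3 was only slightly above the hSRY-OFF group. The rise was 2.35-fold, or 1.23 ± 0.30 (adjusted p = 0.0185), and 1.60 (adjusted p = 0.000821) without hSRY-ON array 3. It missed the threshold without hSRY-OFF array 1, hSRY-OFF array 2 or hSRY-ON array 1 (adjusted p from 0.0618 to 0.0711).

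The promoters of the dehydrogenase pair that moved in opposite directions are given for comparison, *Prodh2* on the plus strand at chr7:30493508-30493657 and *Prodh* on the minus strand at chr16:18089191-18089340, with the HNF1 letters in capitals. Both stretches overlap the annotated span of their gene, chr7:30493586-30513402 for *Prodh2* and chr16:18071726-18089283 for *Prodh*.
Prodh2: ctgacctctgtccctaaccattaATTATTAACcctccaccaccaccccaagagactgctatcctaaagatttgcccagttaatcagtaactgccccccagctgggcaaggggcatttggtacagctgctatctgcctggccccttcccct
Prodh: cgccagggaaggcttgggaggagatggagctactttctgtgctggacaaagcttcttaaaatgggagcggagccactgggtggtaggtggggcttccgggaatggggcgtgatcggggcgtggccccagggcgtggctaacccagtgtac
In *Prodh2* the match lies 127 to 119 bases before the start, read on the other strand. Its 150 bases hold 52.7% G and C, and those of *Prodh*, in which none of the searched letters were found, 62.0%.

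Among the listed enzymes lysine and cysteine each had 1 tested probe, and neither passed. Of the further genes described below, 2 of 2 tested lysine probes and 4 of 7 tested cysteine probes were lower, and 0 were higher. Over all tested probes 17.3% were lower and 15.8% higher. *Aass*, the bifunctional enzyme that starts lysine breakdown, read 7.33, 7.29 and 7.68 on the hSRY-OFF arrays and 6.89, 7.64 and 6.88 on the hSRY-ON arrays. Array 2 of hSRY-ON was within the hSRY-OFF values. The difference was -0.30 ± 0.23 (adjusted p = 0.358). It was -0.55 (adjusted p = 0.0433) without that array and -0.17 without hSRY-ON array 3. *Cth*, which releases cysteine from cystathionine and also degrades cysteine, lay at the edge of detection with 5.46, 5.53 and 6.48 against 5.18, 6.31 and 6.06. Its groups overlapped throughout, and the difference was 0.03 ± 0.37.

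All 4 probes of the aminotransferase and aspartate group passed the test, 3 lower and 1 higher, with 2 of the 4 from *Aspdh*. Of all tested probes 17.3% were lower and 15.8% higher. *Aspdh*, a dehydrogenase of aspartate, fell the most. It read 10.88, 11.10 and 11.00 on the hSRY-OFF arrays and 9.36, 9.54 and 9.50 on the hSRY-ON arrays at the probe ILMN_2848071. The gap between the groups was many times the spread within them. The difference was -1.53 ± 0.12 (adjusted p = 0.000275), a 2.88-fold fall, and at the second probe -1.24 ± 0.14.

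*Got2*, the mitochondrial aspartate aminotransferase, had the smallest fall that passed, from 14.54, 14.42 and 14.35 to 14.11, 14.05 and 14.06. The groups did not overlap. The difference of -0.36 ± 0.11 (adjusted p = 0.0463) did not hold under median scaling (adjusted p = 0.080), with the replicate block (0.0821) or without any 1 of the 6 arrays (0.0622 to 0.166), and over all alternatives adjusted p ranged from 0.00838 to 0.166.

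*Gpt2*, the mitochondrial alanine aminotransferase, rose from 8.45, 8.19 and 8.47 to 9.80, 10.06 and 8.70. As for *Oat*, hSRY-ON array 3 was just above the hSRY-OFF group. The difference was 1.15 ± 0.33 (adjusted p = 0.0342), and 1.56 (adjusted p = 0.000696) without hSRY-ON array 3. It was lost without the filter on detection (adjusted p = 0.0751) and without any other single array (0.0757 to 0.110). The cytosolic enzyme *Gpt*, listed as Gpt1, read 8.25, 8.27 and 8.76 against 8.58, 8.22 and 8.71, and its difference of 0.08 ± 0.19 did not pass (adjusted p = 0.786).

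The *Aspdh* promoter was the 1 that held the HNF4A letters, in capitals in the 150 bases before its start on the plus strand at chr7:44465285-44465434.
Aspdh: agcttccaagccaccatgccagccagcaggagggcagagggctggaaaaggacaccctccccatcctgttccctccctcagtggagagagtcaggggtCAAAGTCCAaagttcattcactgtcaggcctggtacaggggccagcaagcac
The match lies 52 to 44 bases before the start.

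Branched-chain amino acids lose their nitrogen through *Bcat2*, their keto acids are oxidized by a complex built from *Bckdha*, *Bckdhb*, *Dbt* and a further subunit, and separate enzymes then finish leucine, isoleucine and valine. Of 9 tested probes 4 fell, against 17.3% of all tested probes, and 5 did not pass, with a median of -0.57. The genes that fell were *Dbt*, *Hibadh* and *Pcca*.

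*Dbt*, the acyltransferase core of the complex, read 9.37, 9.81 and 9.53 on the hSRY-OFF arrays and 8.41, 8.98 and 8.14 on the hSRY-ON arrays. The groups did not overlap. The difference was -1.06 ± 0.23 (adjusted p = 0.0123), with adjusted p = 0.0519 without hSRY-OFF array 2 and a range of 0.00351 to 0.0519 over all alternatives. Its other 2 probes were detected on too few arrays to be tested.

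The catalytic subunits of the same complex did not pass. *Bckdha* read 11.84, 11.80 and 11.86 against 11.99, 11.91 and 11.17. Its hSRY-ON arrays 1 and 2 lay above all hSRY-OFF arrays and array 3 below, and the difference was -0.15 ± 0.22. *Bckdhb* read 9.25, 9.27 and 9.49 against 8.91, 9.10 and 8.98. Here every hSRY-ON array was lower, and the difference of -0.34 ± 0.13 had an adjusted p of 0.0746. *Bckdhb* passed as lower without background correction (adjusted p = 0.0459) and under trimmed-mean scaling (0.0481).

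*Bcat2* differed by -0.41 ± 0.16 (adjusted p = 0.0952), without overlap between the groups. *Ivd*, the dehydrogenase of the leucine branch, differed by -0.57 ± 0.25 (adjusted p = 0.121). On hSRY-ON array 2 it read 11.39, within the hSRY-OFF values. The difference was -0.85 without that array (adjusted p = 0.014) and -0.33 without hSRY-ON array 3 (adjusted p = 0.245). *Mccc1* of the leucine branch and *Hibch* of the valine branch were detected on 0 arrays.

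*Hibadh*, the dehydrogenase that follows *Hibch* in valine breakdown, read 13.48, 13.38 and 13.50 on the hSRY-OFF arrays and 12.85, 12.96 and 12.69 on the hSRY-ON arrays. No values overlapped, and the difference was -0.62 ± 0.12 (adjusted p = 0.00868), a 1.54-fold fall.

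*Pcca* and *Pccb* encode the alpha and beta subunits of propionyl-CoA carboxylase, which valine, isoleucine, methionine and threonine share. *Pcca* read 10.44, 10.37 and 10.54 against 9.58, 9.53 and 9.05 at the probe ILMN_2921698. All hSRY-ON values were lower, and the difference was -1.06 ± 0.17 (adjusted p = 0.0036), with -0.82 ± 0.14 at the second probe. *Pccb* read 10.35, 10.34 and 10.21 against 10.48, 10.70 and 10.01. Its groups overlapped, and the difference was 0.09 ± 0.18 (adjusted p = 0.725). *Mut*, the mutase that follows them, was detected on 0 arrays.

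Whether the partners of a pair differed in response was tested on the log2 ratio of the 2 genes on each array, with an exact permutation test (two-sided), whose smallest p with 3 against 3 arrays is 0.1. It was run for 4 pairs, with p adjusted over them. Relative to *Prodh2*, *Prodh* was higher by 2.48 in hSRY-ON liver (exact permutation p = 0.1, adjusted 0.2). Every hSRY-ON array lay above every hSRY-OFF array, but *Prodh* was near background in the hSRY-OFF group, and the value was 1.72 without background correction and 1.82 with trimmed-mean scaling. Relative to *Pccb*, *Pcca* differed by -1.16 (exact permutation p = 0.1, adjusted 0.2), again without overlap. Both are the smallest p the design allows.

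The other pairs overlapped. *Gpt* relative to *Gpt2* differed by -1.07 (exact permutation p = 0.2, adjusted 0.267), with hSRY-ON array 3 within the hSRY-OFF values, and by -0.66 without hSRY-ON array 2. *Bckdha* relative to *Bckdhb* differed by 0.19 (exact permutation p = 0.5, adjusted 0.5). The pairs of *Got2* with *Got1* and of *Mccc1* with *Mccc2* could not be compared.

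**Figure D3:**
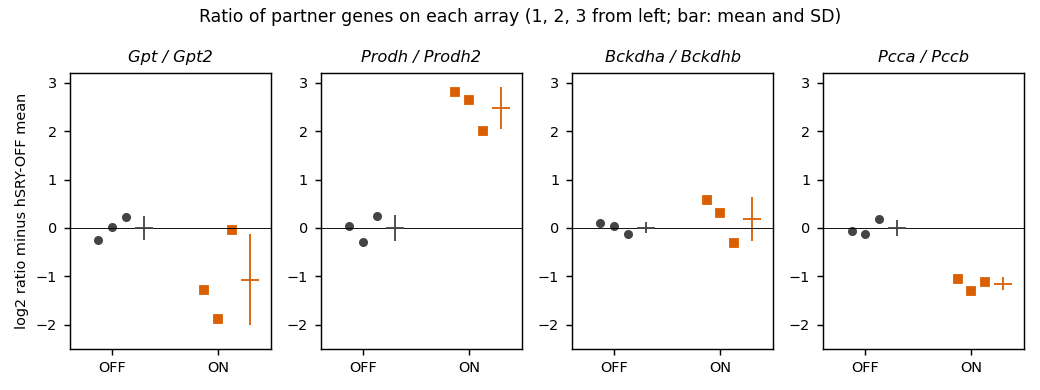
Log2 ratio of the first to the second gene of each pair on each array, minus the mean of the hSRY-OFF arrays (y axis), for 3 hSRY-OFF (circles) and 3 hSRY-ON (squares) arrays, with mean and SD. The ratio of *Prodh* to *Prodh2* is higher by 2.48 and that of *Pcca* to *Pccb* differs by -1.16 with no overlap, while hSRY-ON array 3 falls among the hSRY-OFF arrays for *Gpt* over *Gpt2*.

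A further 50 genes of the same routes were listed from general knowledge, and 36 of them were tested, with 48 probes. Earlier results of these data were known when they were listed, so they are no independent test of the first list. Of these genes 20 fell, 3 rose and 13 did not pass. By probe 54.2% were lower, against 17.3% of all tested probes, and the median difference was -0.70. *Tat*, the aminotransferase of tyrosine, was detected on 0 arrays.

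The largest falls among the further genes were those of *Aldh4a1* (-2.12 ± 0.21, adjusted p = 0.000573), which oxidizes the semialdehydes that arise from proline and hydroxyproline, and of *Agxt2* (-1.77 ± 0.13, adjusted p = 0.000185), a mitochondrial aminotransferase of glyoxylate. *Glyctk*, the glycerate kinase, followed with -1.59 ± 0.34 at its probe of largest fall (adjusted p = 0.0121, and 0.0512 without hSRY-OFF array 2) and with -0.97 and -1.05 at the other 2. On the route from hydroxyproline to glycine, *Prodh2*, *Aldh4a1*, *Got2*, *Hoga1* and *Agxt* thus all passed as lower, *Got2* with the limits given above. *Grhpr*, which reduces glyoxylate and was chosen after its values were seen, differed by -0.38 ± 0.13 (adjusted p = 0.0619).

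The rises were those of *Aspg*, an asparaginase listed as A530050D06Rik (1.60 ± 0.39, adjusted p = 0.019), of *Shmt2*, the mitochondrial serine hydroxymethyltransferase, at 1 of its 2 probes (0.93 ± 0.14, adjusted p = 0.00342, 0.58 without background correction, and 0.08 ± 0.17 at the other probe), and of *Hsd17b10*, a dehydrogenase of isoleucine breakdown (0.65 ± 0.19, adjusted p = 0.0362). *Aspg* read 8.09, 8.07 and 7.67 on the hSRY-OFF arrays and 9.95, 10.13 and 8.56 on the hSRY-ON arrays, so that hSRY-ON array 3 was again the nearest to the hSRY-OFF group. Leaving out hSRY-OFF array 1, 2 or 3 or hSRY-ON array 1 ended its call (adjusted p from 0.056 to 0.0655), and that of *Hsd17b10* in 7 settings (adjusted p from 0.0652 to 0.130).

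**Figure D4:**
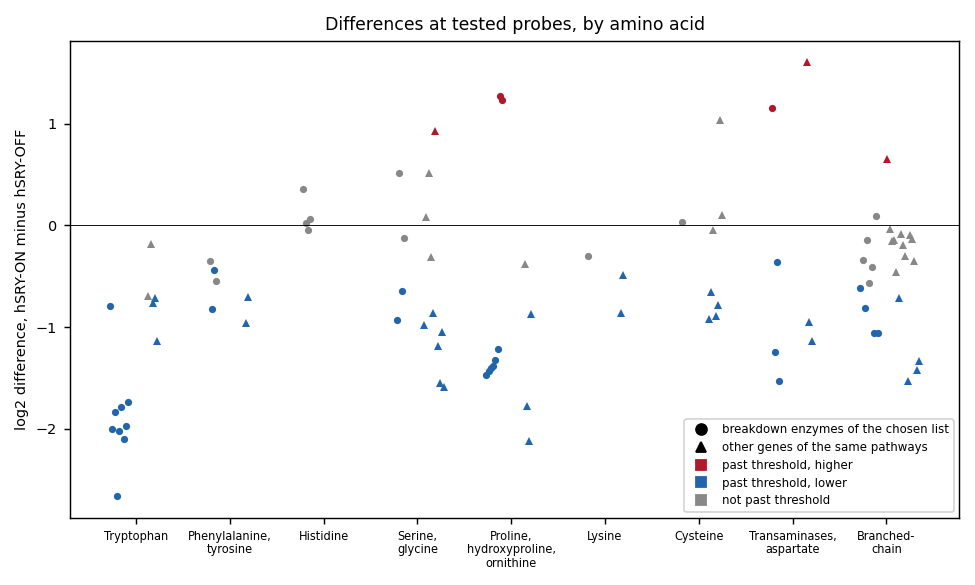
Log2 difference (hSRY-ON minus hSRY-OFF, y axis) of tested probes by amino acid, with circles for the 44 probes of the listed enzymes and triangles for the 48 probes of further genes of the same routes. In both sets most coloured points lie below 0, 26 circles and 26 triangles against 3 of each above.

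Markers of liver cell types also moved. Over all tested probes 17.3% fell and 15.8% rose. Of the hepatocyte markers 7 of 8 were in the table and 4 of 8 tested probes fell. These were *Alb* by 2.16-fold, *Ttr* and both probes of *Serpina1a*, while *Ahsg*, *Trf* and *Apoa1* did not pass. The *Alb* probe was dim, with an hSRY-OFF mean of 7.94 against 15.41 for the brighter *Ahsg* probe. The summed level of the hepatocyte markers was 158732 to 162457 on the hSRY-OFF arrays and 143659 to 151388 on the hSRY-ON arrays. Most of this sum came from *Ahsg*, *Trf* and *Apoa1*, with hSRY-OFF means up to 15.41. These lie close to the 15.50 that *Hba-a1* read on every array. Whether probes this bright could show a fall was not tested. The summed level of 5 stellate and contractile markers was 2683 to 3325 against 12662 to 15176, with 5 probes higher, 4 of them of *Acta2*, and *Lrat* lower. Erythroid markers summed to 63166 to 80758 against 78998 to 91185, with *Hba-a1* the largest part and *Epb4.2* not detected. The macrophage markers gave 5906 to 8137 against 3943 to 5140, with *Cd5l* not detected, and the endothelial ones 2322 to 2727 against 2695 to 3463, with *Kdr* not detected. Neutrophil markers spanned 35559 to 40152 against 23864 to 65308. Of the biliary markers *Krt19* and *Sox9* were not detected, and the 4 kidney and 4 muscle markers were detected on 0 arrays. The pancreatic sum was 515 to 608 against 744 to 854, with *Pnlip* and *Prss2* not detected and *Cpa1* detected on 1 hSRY-ON array. This sum mostly describes *Cela1*, listed as Ela1, the only pancreatic marker tested. The part of these markers in the differences of the enzymes was not tested.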

How the data were processed

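Per the labels, 3 arrays were hSRY-ON and 3 hSRY-OFF livers. The table held linear bead intensities that the authors deposited without background correction or normalization (lowest value 108, array medians 147 to 165), and the detection p-value deposited beside each, which was under 0.01 for 10318 to 10762 probes per array. The submitters' processing notes name limma and the study TCC, a package for counts, which was not applied to intensities. Slide positions and scan times were not analysed here. Every column had a sample (0 without).

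Background was inferred from the detection p and removed with normexp (function nec, offset 16, which shrinks differences of dim probes) in limma 3.58.1 under R 4.3.3. Arrays were then quantile-normalized and log2-transformed. Probes detected on at least 3 of 6 arrays were fitted by group alone (lmFit, eBayes), and two-sided p-values were adjusted by Benjamini-Hochberg over all 10734 probes. The fit was tested on simulated data. Probes of a gene were kept apart, and the number of arrays limits the precision.

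Members and lists were chosen with earlier results of these data known. Values on all arrays are given per amino acid for up to 3 genes past the threshold with the largest differences (or the largest where none passed) and for partners of tested pairs. Of the further genes *Tat* and the 3 largest rises and falls are named, and another gene that the rule would name is not reported here. The array values of *Oat*, *Sds*, *Tdo2*, *Kmo* and *Aspg* were added after they were seen. *Grhpr* and *Gstz1* were likewise named after their values were seen. Promoters came from RefSeq (GRCm38.p6).

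Alternatives were no background correction, normexp or nec with offset 50, median scaling, scaling by trimmed mean of M values, no filter, detection on all 6 arrays, eBayes with trend and robust, a threshold of 0.01, a replicate block and leaving out each array.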

Additional observations from a re-analysis of the deposited data

How the results depend on the processing

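Of 29 member probes past the threshold, 22 kept their call under every alternative at the 0.05 threshold that tested them (*Prodh* was not tested when detection on all 6 arrays was required), and 20 results over the lists gave 237 of 266 recomputed values within their limits. With an adjusted p under 0.01, 693 probes of the whole table were higher and 972 lower, 1 member probe was higher, and of the further genes 1 probe was higher and 17 lower. Without the filter on detection the member median was -0.38 and the branched-chain median -0.23, and more undetected probes entered. The tryptophan median was -1.43 without background correction, -1.64 with normexp and offset 50, -1.74 with nec and offset 50, -1.44 with trimmed-mean scaling and -1.84 without the filter.

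When single arrays were left out, 856 to 1822 probes of the table were higher and 965 to 2125 lower, 1 to 3 member probes higher and 22 to 27 lower, and 1 to 4 probes of the further genes higher and 19 to 28 lower. The fewest calls came without hSRY-OFF array 1 over the table (856 higher, 965 lower), and 1 member rise was left without hSRY-OFF array 1, hSRY-OFF array 2 or hSRY-ON array 1. The medians ranged from -0.88 to -0.69 for the members, from -0.67 to -0.33 for branched-chain enzymes and from -0.0575 to 0.179 for histidine enzymes, and the change of *Bckdha* over *Bckdhb* from -0.001 to 0.45. The histidine median turned negative without hSRY-OFF array 2 and without hSRY-ON array 2, and the *Bckdha* over *Bckdhb* change without hSRY-ON array 1.

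Directions that turned belonged to probes past no threshold. *Ftcd* (ILMN_1226455) read -0.0159 under median scaling. Without single arrays the range was -0.0624 to 0.148 for that *Ftcd* probe, -0.177 to 0.0178 for *Amt*, -0.30 to 0.11 for *Bckdha*, -0.15 to 0.36 for *Cth*, -0.0258 to 0.243 for Gpt1, -0.23 to 0.27 for *Hal*, -0.0558 to 0.287 for *Pccb* and -0.0156 to 1.06 for *Sds*. The causes were not tested.

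Both groups carry replicate numbers 1 to 3, but deviations of same-numbered arrays correlated at only 0.02, 0.10 and 0.05, so the numbers were not taken as pairs. With the replicate number as a block, 24 of the 26 falls and all 3 rises among the members kept their call, and 15.3% of all probes were lower and 14.6% higher. The 3 arrays per group and the distance of dim probes such as *Cth*, *Hal* and *Amt* from background limit what could be detected.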
